A study of Homo sapiens with 14 samples.

Results

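The 6 entries described here are hsa-miR-3182, hsa-miR-4454, hsa-miR-1260a, hsa-miR-1260b, hsa-miR-7977 and hsa-miR-6723-5p, out of 2588 mature miRNAs in the count tables. They were picked by name, as entries held to resemble tRNA or nuclear copies of mitochondrial RNA, with their measured values in both pulldowns known. Their enrichments are therefore given as a description, with no test. The libraries came from A549 cells, an established human lung cancer line, with no genetic change, and all RNA of both assays had its caps removed first. In BoRed-seq, Red libraries (n = 2) came from RNA reduced with sodium borohydride in the presence of free m7GTP and then turned into abasic sites at low pH, and Ctrl libraries (n = 2) from RNA treated with borohydride that acid had already quenched. Both went through the same biotin probe (ARP) and streptavidin pulldown. In m7G-RIP-seq, IP libraries (n = 5) came from an immunoprecipitation with an antibody against m7G, and Input libraries (n = 5) from an aliquot of the same kind of RNA, heat-denatured and not precipitated. The labels do not say whether replicates were separate cultures, so their spread may be technical. The tables hold only miRNAs, so the identity of the line was not checked against marker genes.

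N7-methylguanosine (m7G) is best known from mRNA caps and from tRNA, where METTL1 with its partner WDR4 methylates a guanosine of the variable loop, position 46 in the standard numbering, often within the letters AGGT of the gene. Every mature tRNA ends in CCA, which an enzyme adds after transcription and which the gene does not encode. tRNAs are cut into short fragments in many cells, and some sequences once entered as miRNAs match such fragments. Mitochondrial DNA has been copied into the nuclear genome many times, so a read from mitochondrial RNA can also fit a nuclear locus.

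The mature sequences came from RefSeq (GRCh38.p14), which held 5 of the 6 entries, and hsa-miR-6723-5p is described by its counts alone, its likeness to mitochondrial RNA not having been checked. The sequences are shown because the likeness to tRNA is what joins these entries, with the seed, bases 2 to 8, in capitals.
hsa-miR-3182: gCUUCUGUaguguaguc
hsa-miR-4454: gGAUCCGAgucacggcacca
hsa-miR-1260a: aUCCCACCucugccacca
hsa-miR-1260b: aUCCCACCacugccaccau
hsa-miR-7977: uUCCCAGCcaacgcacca
hsa-miR-1260a and hsa-miR-1260b share the seed UCCCACC, which no other mature miRNA in the table of 2370 names had, and the seeds of the other 3 were found in no other name. The sequences of hsa-miR-4454, hsa-miR-1260a and hsa-miR-7977 end in CCA, as 45 of the 2370 names do (1.90%). The 5 entries are 17 to 20 bases long, where the median miRNA has 22. hsa-miR-4454 holds 6 guanosines and hsa-miR-3182 holds 5, against a median of 6 over all names. hsa-miR-7977 holds 2, and hsa-miR-1260a and hsa-miR-1260b hold 1 each, where 72 of all names (3.04%) have 1 or none.

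Each of the 5 was laid without gaps along 465 annotated tRNA genes with CCA added (443 nuclear and 22 mitochondrial). The closest stretches are printed below as DNA letters on hg38, with a base that differs from the miRNA in capitals, to show how near the likeness is.
Valine tRNA gene TRV-CAC2-1, chr6:27280270-27280342, minus strand, bases 1 to 17: gcttctgtagtgtagtG
Histidine tRNA gene TRH-GTG1-1, chr1:146038044-146038115, plus strand, bases 56 to 75: gAatccgagtcacggcacca
Leucine tRNA gene TRL-AAG2-1, chr5:181187701-181187782, plus strand, bases 68 to 85: atcccaccGctgccacca
Leucine tRNA gene TRL-TAG2-1, chr14:20625370-20625451, plus strand, bases 68 to 85: atcccaccactgccacca
Glycine tRNA gene TRG-TCC2-1, chr1:146037061-146037132, plus strand, bases 58 to 75: ttcccGgccaacgcacca
hsa-miR-3182 matched the first 17 bases of the valine tRNA at 16 of 17 places, with C17G as its one difference (the miRNA base, its place from the 5′ end of the miRNA, then the tRNA base), and no other tRNA gene came as near. hsa-miR-4454 matched the last 20 bases of histidine tRNA at 19 of 20 places (G2A), equally in 9 genes. hsa-miR-1260a matched the last 18 bases of leucine tRNA at 17 of 18 places (U9G), equally in 12 genes with the anticodons AAG or TAG. hsa-miR-1260b matched the last 18 bases of 1 leucine tRNA gene at every place, with 1 further base at its 3′ end. hsa-miR-7977 matched the last 18 bases of glycine tRNA at 17 of 18 places (A6G), equally in 8 genes. So 4 of the 5 lie at the 3′ end of a tRNA, CCA included, and hsa-miR-3182 at the 5′ end.

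**Figure D1:**
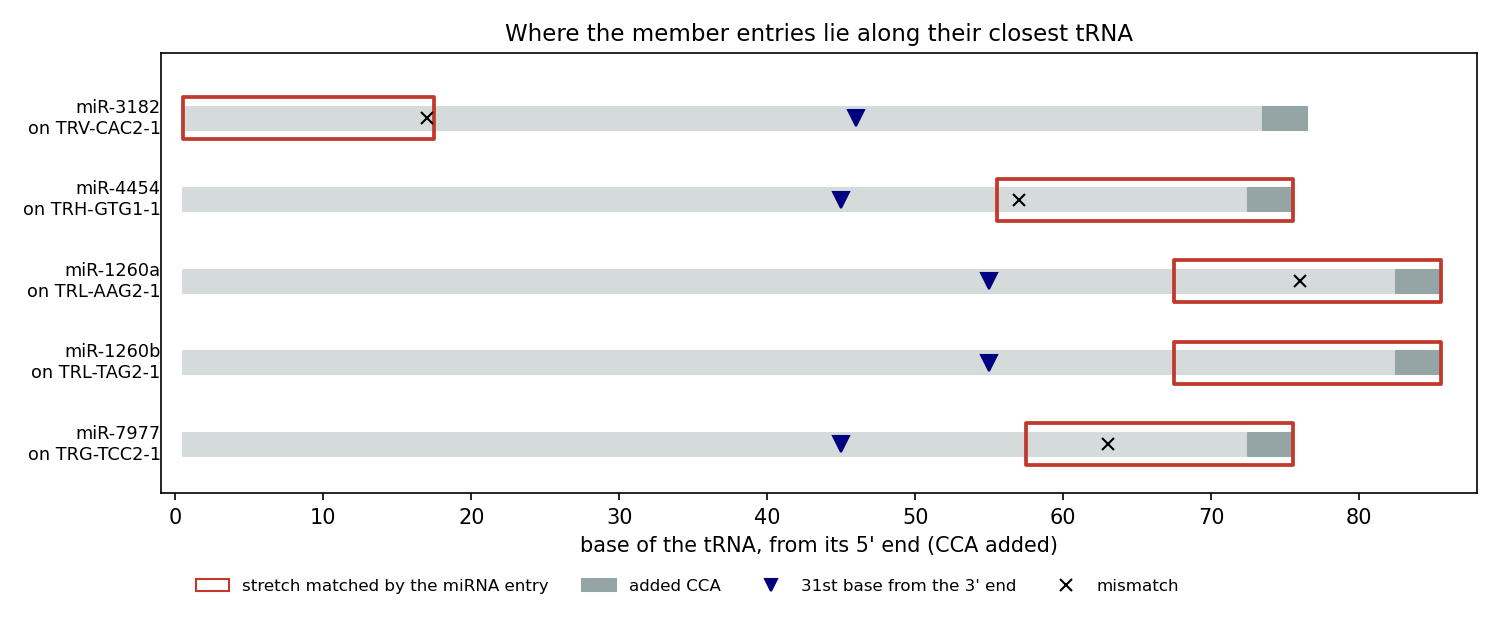
Position of 5 entries along the closest tRNA, in bases from the 5′ end of the tRNA with CCA (dark grey) added; boxes mark the matched stretch, crosses the differing base and triangles the 31st base from the 3′ end. hsa-miR-3182 lies at the 5′ end, the other 4 at the 3′ end, and no box reaches the triangle.

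The place of tRNA position 46 was taken as the 31st base from the 3′ end, CCA included. This holds only for tRNAs whose variable loop is neither shortened nor extended into an arm. The leucine tRNAs have such an arm, and the histidine and glycine tRNAs have a shorter loop than the valine tRNA. For these the place is only a landmark, and the base shown there need not be position 46. The window around it is shown for the valine tRNA, with AGGT in capitals, and for the histidine and glycine tRNAs, with the base at the place in capitals.
Valine tRNA, bases 37 to 55: acgcgaaAGGTccccggtt
Histidine tRNA, bases 36 to 54: ggccgcagcAacctcggtt
Glycine tRNA, bases 36 to 54: caagcagttGacccgggtt
Of all 465 tRNA genes, 194 (41.7%) hold AGGT with its second G at this place, and of the 5 tRNA genes above the valine gene does. None of the matched stretches reaches the place. Between the place and the matched stretch lie 28 bases for hsa-miR-3182, 10 for hsa-miR-4454, and 12 each for hsa-miR-1260a, hsa-miR-1260b and hsa-miR-7977. A match of letters is a description of sequence and shows neither a methylated site nor the origin of a read.

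The entries also have places of their own in the genome (hg38, genes of GENCODE 44). hsa-miR-3182 lies at chr16:83508349-83508365 on the plus strand in an intron of CDH13, a cadherin gene. hsa-miR-4454 lies at chr4:163093607-163093626 on the minus strand, between genes. hsa-miR-1260a lies at chr14:77266231-77266248, opposite an exon of NGB (neuroglobin), and hsa-miR-1260b at chr11:96341447-96341465, opposite an exon of MAML2, a Notch co-activator gene. hsa-miR-7977 lies at chr3:176515103-176515120, opposite an intron of the long non-coding RNA gene LINC01208. The mature sequence of hsa-miR-4454 was found at 1 place in the genome exactly and at 188 more with 1 mismatch, the most of the 5. hsa-miR-1260a was found at 4 and 75 places, hsa-miR-1260b at 2 and 14, hsa-miR-7977 at 1 and 11, and hsa-miR-3182 at 1 and 8. The alignment in the methods of the study allowed mismatches and kept reads that fitted up to 10 loci. The submitters' processing notes name another aligner, so whether that limit applied to the deposited counts is not known. How a read from a tRNA was shared with these entries was not tested.

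The first comparison asked how much of each entry the borohydride chemistry pulled down. Library totals were 242085 and 277498 counts in Red against 5874405 and 4678102 in Ctrl, so values are given first as raw counts and then as normalized counts, the counts divided by the size factor of the library. hsa-miR-3182 had 6 and 15 counts in Ctrl and 475 and 680 in Red. Red was thus higher in counts although its libraries were the smaller ones. Normalized, hsa-miR-3182 went from 3.62 ± 2.77 in Ctrl to 1712 ± 67.2 in Red (SD, n = 2 each), a log2 enrichment of 8.96 ± 0.46 (SE). hsa-miR-7977 had 5 and 6 counts in Ctrl and 92 and 102 in Red, and its log2 enrichment was 7.38 ± 0.59 (SE). hsa-miR-6723-5p had 15 and 12 counts in Ctrl and 59 and 84 in Red, a log2 enrichment of 5.62 ± 0.50 (SE). hsa-miR-1260b was the entry with the most Ctrl counts of the 6, with 103 and 104 there and 205 and 268 in Red. Its log2 enrichment of 4.40 ± 0.34 (SE) was the lowest of the 5 fitted.

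hsa-miR-4454 had 2 and 3 counts in Ctrl and 68 and 106 in Red. From the summed counts and size factors Red was 323-fold higher, with an exact 95% interval of 136 to 1008 that covers counting error alone, since the libraries carry no molecular identifiers. The Red libraries lay close together for this entry, at 251.8 and 259.4 normalized counts. hsa-miR-1260a had 0 counts in both Ctrl libraries and 6 and 1 in Red, too few to enter the fit. The ratio of Red to a floor of 3 counts over the Ctrl group was 21.7. The exact 95% interval of the ratio from the summed counts had a lower limit of 13.4 and covers counting error alone. It leaves out the spread between the Red libraries, at 22.2 and 2.45 normalized counts. Of the 7 Red counts 6 came from 1 library, so no size of enrichment is read from this entry. Of the pair with the shared seed, hsa-miR-1260b thus carried nearly all counts in either group.

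In each of the 6 entries both Red libraries lay above both Ctrl libraries, for hsa-miR-1260a with 6 and 1 counts against 0 and 0. With n = 2 in each group, and with the number of all entries that did the same not counted, nothing is read from this. Of the 5 that entered the fit all were called enriched (adjusted p under 0.05), where 32.2% of the 400 entries with an adjusted p were called enriched and 27.2% depleted. The entries were chosen knowing this contrast, so nothing is read from that count. hsa-miR-4454 and hsa-miR-7977 reached the minimum of 10 counts in Red libraries only, and hsa-miR-3182 in 1 Ctrl library, so these 3 entered the fit through their Red counts. In the order of log2 enrichment over all 453 fitted entries, hsa-miR-3182 was number 4, hsa-miR-4454 number 7, hsa-miR-7977 number 15, hsa-miR-6723-5p number 32 and hsa-miR-1260b number 45. hsa-miR-3182 and hsa-miR-4454, and hsa-miR-4454 and hsa-miR-7977, differed by less than the sum of their SEs, and the neighbours further down by more. The median of the 5 was 7.38, against −0.32 over all fitted entries. Scaling by total counts instead moved the median of all entries to 0.76, the 5 entries to between 5.51 for hsa-miR-1260b and 10.08 for hsa-miR-3182, and the calls over all entries from 129 enriched and 109 depleted to 175 and 46.

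**Figure D2:**
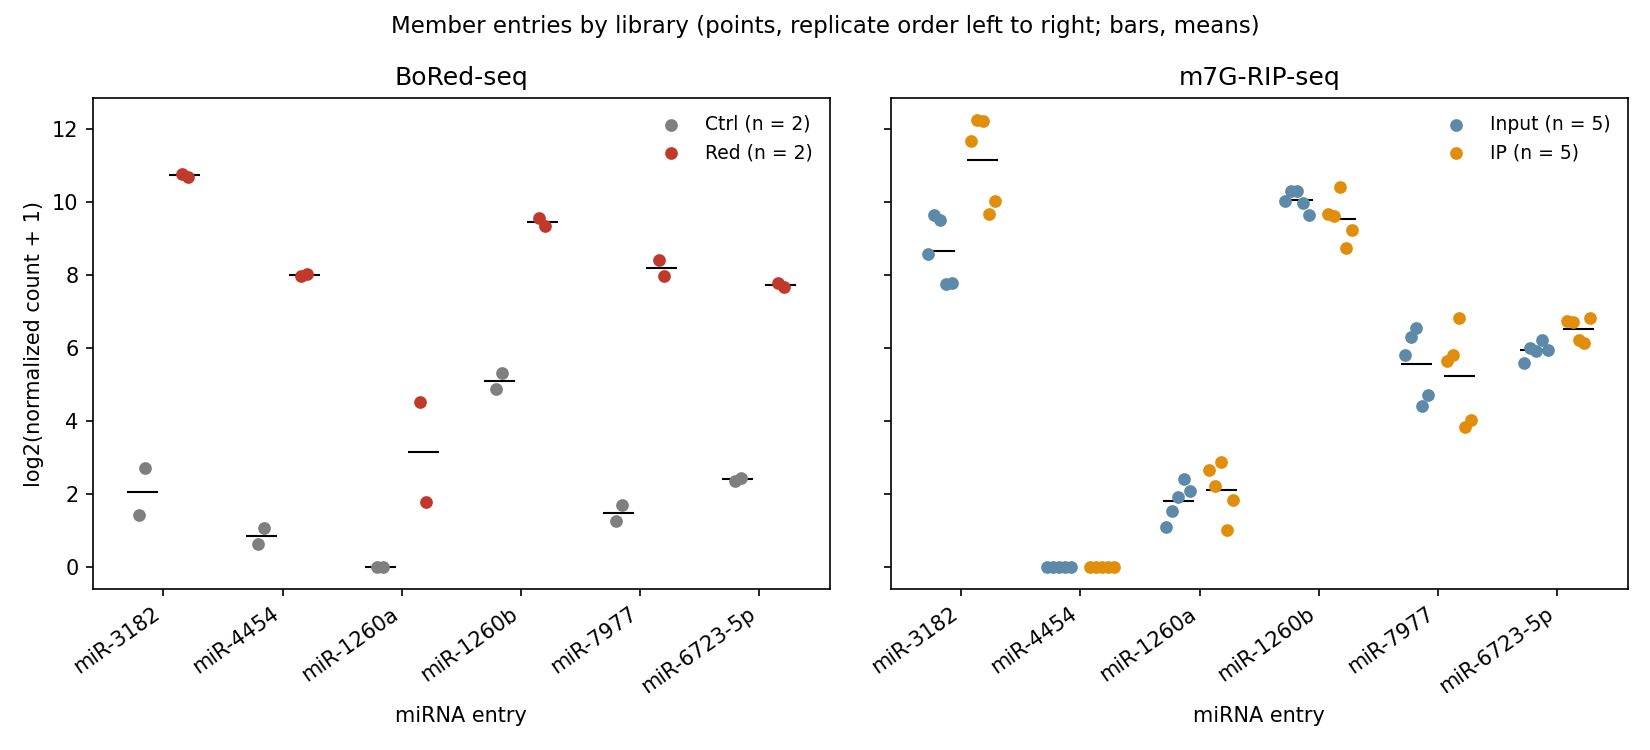
Log2(normalized count + 1) of the 6 entries in every library, BoRed-seq on the left (Ctrl grey, Red red, n = 2 each) and m7G-RIP-seq on the right (Input blue, IP orange, n = 5 each), with replicates in order from left to right and bars at the mean. Red lies above Ctrl for every entry, for hsa-miR-1260a with 1 count in Red replicate 2 against 0 in Ctrl. IP lies above Input in all libraries for hsa-miR-3182 alone, and hsa-miR-4454 is at 0 throughout m7G-RIP-seq.

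The second comparison asked how much of each entry the antibody against m7G recovered. Input libraries held 7097379 to 14874685 counts and IP libraries 2854811 to 6452759. Pairs of same-numbered libraries are given as well (IP over Input, log2 of normalized counts), although the labels do not say that equal numbers mark pairs. hsa-miR-3182 had 340, 1274, 1034, 347 and 416 counts in Input 1 to 5 and 2490, 3955, 2269, 813 and 822 in IP 1 to 5. Its normalized counts ran from 215.7 to 809.2 in Input, with a median of 384.3, and from 823.8 to 4867 in IP, with a median of 3284. Every IP library lay above every Input library, narrowly at the edge, where the lowest IP value of 823.8 came close to the highest Input value of 809.2. The log2 enrichment was 2.65 ± 0.55 (SE), number 36 of 670 fitted entries. IP exceeded Input in 5 of 5 pairs, by a log2 of 2.51 ± 0.45 (SD, n = 5), from 1.93 to 3.10.

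hsa-miR-6723-5p had 42, 99, 85, 119 and 114 counts in Input and 80, 85, 35, 69 and 88 in IP. In normalized counts Input ran from 47.5 to 74.0 and IP from 69.9 to 111.7, so the groups overlapped. IP exceeded Input in 4 of 5 pairs, and the log2 enrichment was 0.61 ± 0.25 (SE). hsa-miR-1260b had 933, 2004, 1830, 1625 and 1515 counts in Input and 618, 643, 654, 426 and 473 in IP. Its normalized counts ran from 807.6 to 1281 in Input and from 431.7 to 1378 in IP, where replicate 3 alone exceeded the Input libraries. The log2 enrichment was −0.44 ± 0.31 (SE), and IP exceeded Input in 1 of 5 pairs. hsa-miR-7977 had 49, 123, 133, 33 and 47 counts in Input and 37, 45, 53, 13 and 12 in IP, and a log2 enrichment of −0.17 ± 0.63 (SE). Its groups overlapped over nearly their whole range, and the sign of its log2 changed with total-count scaling, to 0.25 where the median of all entries moved to 0.38, and to 0.11 without Input replicate 3, 0.08 without IP replicate 4 and 0.06 without IP replicate 5. Total-count scaling also turned the calls over all entries from 183 enriched and 200 depleted to 232 and 164.

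**Figure D3:**
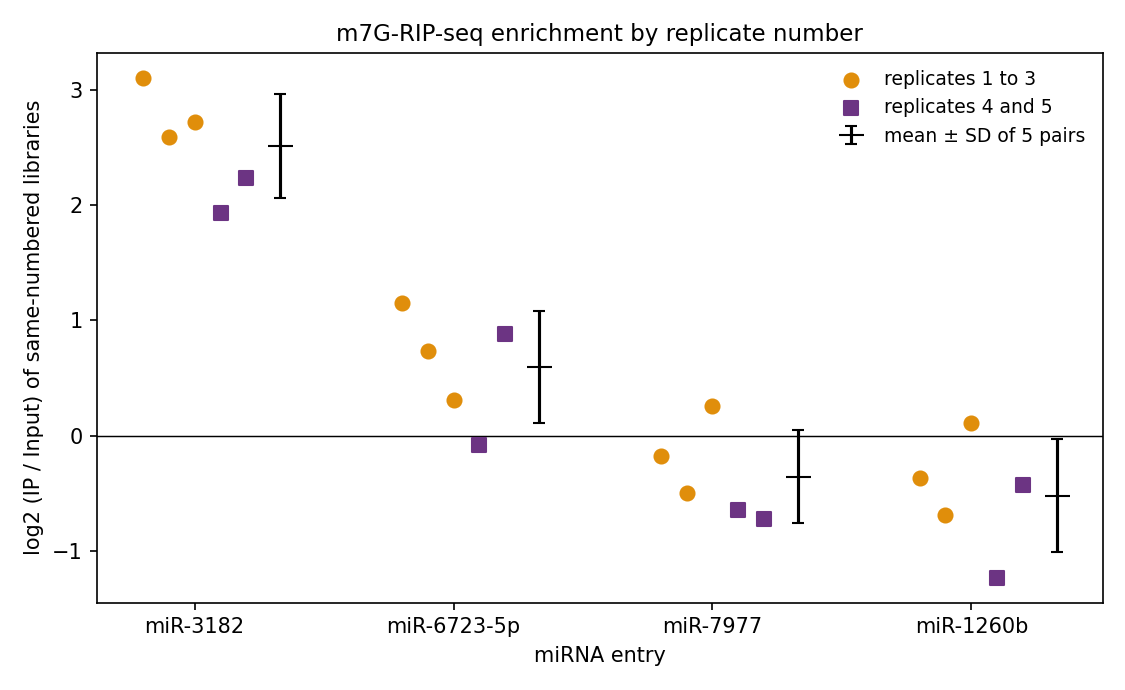
Log2 ratio of IP to Input for same-numbered m7G-RIP-seq libraries of the 4 entries that entered the fit, circles for replicates 1 to 3, squares for replicates 4 and 5, and bars for the mean ± SD of the 5 pairs. All ratios of hsa-miR-3182 lie from 1.93 to 3.10, and those of hsa-miR-1260b and hsa-miR-7977 are below 0 in 4 of 5 pairs each.

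hsa-miR-4454 had 0 counts in all 10 m7G-RIP-seq libraries. The Input libraries together held 60164788 counts. A count of 0 allows a share of up to 0.0613 in every 1000000 miRNA counts there, and up to 0.149 in IP. These are upper limits of exact 95% intervals. The entry made up 334.9 of every 1000000 counts in Red (exact 95% interval 287.0 to 388.5) and 0.474 in Ctrl (0.154 to 1.11). From these summed counts the Ctrl interval lay above the Input limit, but the intervals cover counting error alone. By single library they overlapped, with 0.0412 to 1.23 in Ctrl replicate 1 against up to 0.520 in Input replicate 1. Ctrl went through a pulldown and Input did not, and the difference was not tested. Of the 885 entries at 0 in every m7G-RIP-seq library, hsa-miR-4454 had the most BoRed-seq counts, 179 in all. The next was hsa-miR-4531, named after its values were seen, with 10 counts, all in Ctrl, and 80 others had 1 to 9. hsa-miR-1260a had 1 to 7 counts in Input libraries and 1 to 4 in IP libraries and did not enter the fit. Its summed counts, 21 in Input and 13 in IP, gave a ratio of IP to Input of 1.20 with an exact 95% interval of 0.550 to 2.50, which covers counting error alone. Its pairs went both ways, with log2 ratios of 2.22, 0.95 and 1.17 in replicates 1 to 3 and −2.10 and −0.33 in replicates 4 and 5, each from 1 to 7 counts a library.

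Of the 4 entries fitted in m7G-RIP-seq, hsa-miR-3182 and hsa-miR-6723-5p were called enriched, where 27.3% of the 670 entries tested were called enriched and 29.9% depleted. The rule used this contrast too, and nothing is read from the count or from the calls of these entries under other settings. With the replicate number as a block, hsa-miR-3182 stayed called with a log2 of 2.52, hsa-miR-6723-5p was no longer called with 0.60, and hsa-miR-1260b was called depleted with −0.52. The call of hsa-miR-6723-5p was also lost without any 1 of IP replicates 1, 2 and 5 or Input replicates 1, 2, 3 and 5, and in the quasi-likelihood test of edgeR. hsa-miR-1260b was called depleted without IP replicate 3, with a log2 of −0.74. The median of the 4 was 0.22, against 0.02 over all fitted entries.

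**Figure D4:**
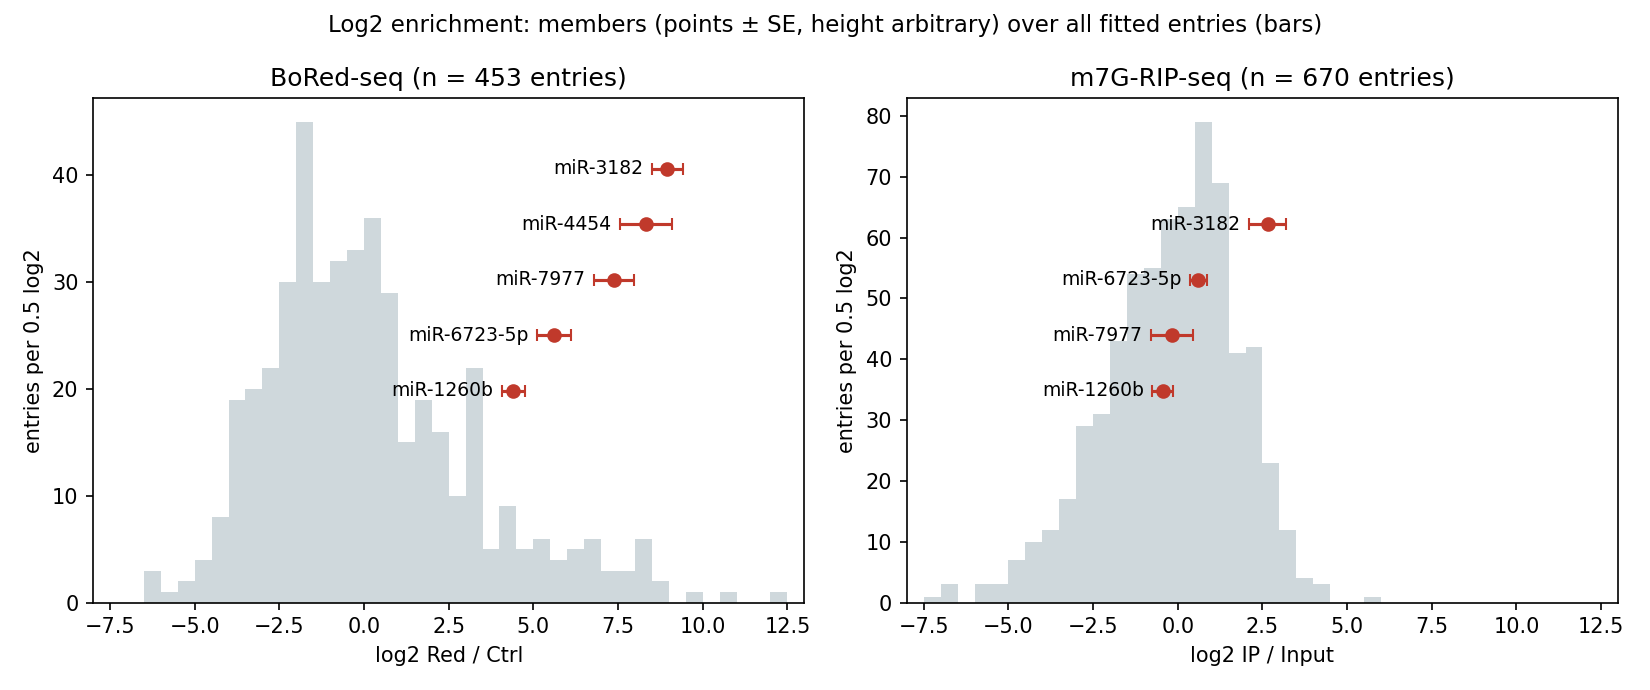
Log2 enrichment of the fitted entries (points with SE, at arbitrary height) over the distribution of all fitted entries (grey bars, number of entries per 0.5 log2), for the 453 entries of BoRed-seq and the 670 of m7G-RIP-seq. The 5 fitted members lie between 4.40 and 8.96 in BoRed-seq, and the 4 fitted in m7G-RIP-seq between −0.44 and 2.65.

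Set side by side, the log2 enrichments of hsa-miR-3182 were 8.96 with the chemistry and 2.65 with the antibody, the highest of the fitted members both times. Those of hsa-miR-7977 were 7.38 and −0.17, those of hsa-miR-1260b 4.40 and −0.44, and those of hsa-miR-6723-5p 5.62 and 0.61. The assays were prepared and scaled apart, so the difference between their values was not tested. Of the 4 entries at the 3′ end of a tRNA, hsa-miR-1260b and hsa-miR-7977 entered both fits, and their antibody values lay at or below 0, except that hsa-miR-7977 rose above 0 under the settings named above.

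hsa-miR-3182 and hsa-miR-7977 differed in level between replicates 1 to 3 and replicates 4 and 5 of m7G-RIP-seq in both groups. The first averaged 639.2 normalized counts in Input 1 to 3 and 218.7 in Input 4 and 5, and 4311 against 933.5 in IP. The second averaged 75.6 against 22.8 in Input and 72.0 against 14.2 in IP. The values of replicates 4 and 5 lay below those of replicates 1 to 3 for both entries in both groups, 2.92-fold and 3.32-fold in Input and 4.62-fold and 5.07-fold in IP, while the median fitted entry had a ratio of replicates 1 to 3 over 4 and 5 of 0.920 in Input and 0.901 in IP. For hsa-miR-6723-5p the same ratio was 0.841 in Input and 1.04 in IP, and for hsa-miR-1260b 1.32 and 1.93. The second principal component of all libraries (15.3% of the variance) parted the same replicates, the labels name no batch, and its part in these levels was not tested. Within replicates 1 to 3 the log2 enrichment of hsa-miR-3182 was 2.72, and within replicates 4 and 5 it was 2.06, called in both. hsa-miR-1260b had −0.32 and −0.86, the second of which was called. hsa-miR-7977 had −0.12 and −0.72 and hsa-miR-6723-5p 0.71 and 0.39, with no call for either entry in either set. The entries were chosen knowing this contrast, so these calls describe the settings and are no test of the entries.

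A search of all mature sequences found other entries that share an exact run of 16 or more bases with a tRNA. Besides hsa-miR-3182, hsa-miR-4454 and hsa-miR-1260b, the count tables held hsa-miR-5100, named because it was called in BoRed-seq, and hsa-miR-4284, named to complete the set. hsa-miR-4284, which matches mitochondrial phenylalanine tRNA (gene TRNF) over 18 bases, had 1 count over the BoRed-seq libraries, in Red, and 3 over the Input libraries, too few to describe further. hsa-miR-5100 lies at chr10:42997630-42997651 on the plus strand and shares 16 bases, in capitals, with bases 60 to 75 of the 77 of threonine tRNA (TRT-AGT5-1, CCA added).
hsa-miR-5100: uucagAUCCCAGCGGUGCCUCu
This stretch too lies near the 3′ end of the tRNA. hsa-miR-5100 had 5 and 10 counts in Ctrl and 93 and 76 in Red, and both Red libraries lay above Ctrl. Its log2 enrichment in BoRed-seq was 6.75 ± 0.60 (SE), given without a test since it, too, reached 10 counts in only 1 Ctrl library and entered the fit through its Red counts. In m7G-RIP-seq it had 125, 183, 128, 35 and 59 counts in Input and 55, 55, 14, 10 and 12 in IP. The groups overlapped once scaled, but IP was below Input in 5 of 5 pairs, with log2 ratios from −1.60 to −0.78. Without the block the log2 enrichment was −1.03 ± 0.65 (SE, adjusted p = 0.165, DESeq2 Wald test), which did not pass the threshold. With the replicate block it was −1.08 ± 0.35 (SE, adjusted p = 0.00379, DESeq2 Wald test), which passed it. Over the alternatives the adjusted p ran from 0.00379 to 0.387, and the block was the only one of them to pass. The block takes same-numbered libraries as pairs, which was not shown.

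For comparison, 2 lists were set beside the 6, of entries that resemble rRNA and of miRNAs from snoRNA hosts. Both were chosen with results known and are described without a test. The shares called over all entries were 32.2% enriched and 27.2% depleted in BoRed-seq, and 27.3% and 29.9% for the antibody. All 6 entries that resemble rRNA, the RNA of the ribosome, were called enriched in BoRed-seq, with a median log2 of 6.13, and 4 of 5 in m7G-RIP-seq, with a median of 1.50. Of 10 miRNAs from snoRNA hosts, the small RNAs that guide rRNA modification, 6 of 7 fitted were called enriched in BoRed-seq, with a median of 3.40. In m7G-RIP-seq 2 of 8 of them were called enriched, close to the share over all entries, and 5 depleted, with a median of −1.80. The medians of the fitted members, 7.38 and 0.22, lie above both lists in BoRed-seq and between them in m7G-RIP-seq, which was not tested. The ranges overlapped. In BoRed-seq they were 4.40 to 8.96 for the members, 2.47 to 8.78 for the rRNA-like entries and −1.73 to 7.56 for the snoRNA-host miRNAs. In m7G-RIP-seq they were −0.44 to 2.65, −0.12 to 2.55 and −6.74 to 3.46 in the same order.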

How the data were processed

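Each assay had 1 deposited table of raw read counts, 1 line per mature miRNA, which the authors made with Trimmomatic, an alignment to hg38 (GRCh38) and featureCounts over miRBase. The submitters' processing notes name Bowtie2 as aligner and the methods of the study STAR. All 14 libraries matched their labels, and 0 columns went unmapped. Red was compared with Ctrl, and IP with Input, by Wald tests (DESeq2 1.42.0, R 4.3.3) over entries with at least 10 counts in at least 2 (BoRed-seq) or 5 (m7G-RIP-seq) libraries, with median-of-ratios size factors, unshrunken log2 values and Benjamini-Hochberg adjustment over the whole table. Alternatives included edgeR 4.0.16, other scalings and filters, a replicate block and leaving out each library. Same-numbered IP and Input libraries deviated from their group means with r = 0.146 to 0.387 over entries. Libraries of unlike number were not compared, and both groups share the split between replicates 1 to 3 and replicates 4 and 5. These values therefore do not show pairing, and taking the numbers as pairs is an assumption. The tests were tried on simulated data first. The members and lists were chosen with earlier results of these data known. The rule for names took the members, the 3 entries that vary most like each fitted member (mean of at least 100 normalized counts), and entries with a tRNA run of 16 or more bases where called (hsa-miR-4284 was added). Mature sequences were laid along tRNA genes of RefSeq, of which 44 with unclear strand were read on both, and searched in hg38 with up to 1 mismatch. Intervals are exact 95% intervals.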

Additional observations from a re-analysis of the deposited data

How the results depend on the processing

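The members were chosen with these values known, so what follows describes settings and supports no call. A minimum of 10 counts in every library left 2 members, hsa-miR-1260b and hsa-miR-6723-5p, both called, with a median log2 of 4.79. The median was 7.04 with no filter, 8.48 with total-count factors, and from 6.94 to 7.69 when 1 library was left out. With the replicate block, which in BoRed-seq too rests on a shared number only (r = 0.110 for both pairs), 5 members were called with a median of 7.37. Over all entries the depleted count was 71 with 10 counts in every library, 167 in edgeR's test, 46 with total-count factors and from 62 to 86 when 1 library was left out, and the enriched count was 71 under the same strict filter. The m7G-RIP-seq members called enriched fell from 2 to 1 in edgeR's test, with no filter, with the replicate block, in replicates 1 to 3 alone, in replicates 4 and 5 alone, and ranged from 1 to 2 when 1 library was left out. The members called depleted rose to 1, hsa-miR-1260b, with the replicate block and in replicates 4 and 5 alone, and ranged from 0 to 1 when 1 library was left out. The median changed sign in replicates 4 and 5 alone, to −0.17, and ranged from −0.04 to 0.39 when 1 library was left out. The depleted count over all entries was 116 with 10 counts in every library. The strict filter leaves fewer entries and the setting with no filter more, and the cause of these changes was not tested. Counts of 2 to 15 in Ctrl limit the log2 of hsa-miR-4454, hsa-miR-7977 and hsa-miR-3182, which ran from 8.15 to 10.08 for the last. The other entry given a test, hsa-miR-5100, for which the alternatives were chosen after its values were seen, was called depleted with the replicate block (log2 −1.08) and under no other setting. The number of members with a tRNA run was 3 at 14 or 16 bases and 2 at 18.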

Other observations

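Over the 10 m7G-RIP-seq libraries, after subtraction of the mean of each group, the entries that varied most like hsa-miR-3182 were hsa-miR-671-5p (r = 0.973), hsa-miR-4429 (0.950) and hsa-miR-320a (0.944), of 312 with a mean of at least 100 normalized counts. Those most like hsa-miR-7977 were hsa-miR-671-5p (0.962), hsa-miR-3182 (0.960) and hsa-miR-320b (0.953). The nearest to hsa-miR-1260b were hsa-miR-378g (0.945), hsa-miR-4444 (0.888) and hsa-miR-365b-5p (0.888), and its r with hsa-miR-7977 was 0.902. hsa-miR-6723-5p had lower values, with hsa-miR-584-5p (0.706), hsa-miR-1296-5p (0.686) and hsa-miR-134-5p (0.659) first, and an r of 0.0113 with hsa-miR-3182. These values are descriptions over 10 libraries that share the split between replicates 1 to 3 and replicates 4 and 5, and carry no test.

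A shorter run of 14 bases added hsa-miR-4448, which matches a proline tRNA (TRP-TGG3-5), had 1 BoRed-seq count and was not fitted, and hsa-miR-4443, which shares bases 52 to 65 of a leucine tRNA (TRL-CAG2-2) (both named after their values were seen). hsa-miR-4443 had 6 and 9 counts in Ctrl and 16 and 20 in Red, a log2 enrichment of 4.46 ± 0.78 (SE), and no Ctrl library reached 10 counts, so it entered that fit through Red. In m7G-RIP-seq it had 107, 189, 129, 62 and 88 counts in Input and 204, 419, 282, 265 and 231 in IP, a log2 enrichment of 2.22 ± 0.40 (SE), with every IP library above every Input library once scaled. Its matched stretch ends before the 3′ end of the tRNA, unlike those of hsa-miR-4454, hsa-miR-1260a, hsa-miR-1260b and hsa-miR-7977. The stretch of hsa-miR-5100, bases 60 to 75 of 77, also ends before that end, and its log2 enrichment in m7G-RIP-seq was −1.03 ± 0.65 (SE). The stretch of hsa-miR-4443 covers the 31st base from the 3′ end of its tRNA of 86 bases, CCA included. In leucine tRNAs that place is only a landmark. Whether the place of a stretch goes with the antibody value was not tested.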
